A study of Mus musculus with 4 samples.

Results

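Retnla-high tumor macrophages were cells of 3 mouse omental tumor libraries that held complement C1q transcripts and a Retnla level of at least 2000 CPM. A UMI (unique molecular identifier) stands for 1 captured transcript, and CPM is the number of UMIs of a gene per 1000000 UMIs, of a single cell here and of the summed cells of a group where groups are compared. Barcodes were kept from 300 genes and 500 UMIs upward, with no more than 15% of their UMIs from mitochondrial genes. A gated macrophage then held at least 3 UMIs of C1qa, C1qb and C1qc together, no Cd3e UMI, at most 1 Cd79a UMI, under 3 UMIs of the cycle genes Mki67 and Top2a, and under 5 UMIs of the large peritoneal macrophage genes Alox15, Cd5l, Prg4 and Timd4. The Retnla threshold kept 209 cells of 1856 gated macrophages, 8332 filtered cells and 13171 tumor barcodes. KPCA.B gave 162 of them, KPCA.C 24 and KPCA.A 23. The members were chosen by their Retnla level, so that level, and every difference from the other gated macrophages, is given as a description with no test.

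The tumors grew in the omentum of C57BL6J mice from the lines KPCA.B, KPCA.C and KPCA.A, which the labels give as fallopian tube epithelial cells. Each tumor library came from 4 pooled tumors, with the mice at 8 weeks of age, and tumors were digested with collagenase type I and DNase I. Each line had 1 library, so no difference between lines has a replicate check, and animals within a pool cannot be told apart. A further library held KPCA ascites at 9 weeks of age. Its line is not given in the sources used here.

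Retnla encodes resistin-like molecule alpha (RELM-alpha, also FIZZ1), a small secreted protein of the resistin family. In mouse macrophages it is induced by interleukin-4 and interleukin-13 through the transcription factor STAT6, together with a C/EBP factor, and it is a standard mark of alternative activation next to Arg1 and Chil3. Tissue-resident macrophages of vessels and serosal linings are known for Lyve1, a hyaluronan receptor, and Folr2, a folate receptor, whereas cells that recently came from blood monocytes are known for Ccr2 and Ly6c2.

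The sequence upstream of Retnla is shown because its known inducers act there, with that of Retnlg, its neighbour on chromosome 16, which had no UMI in the members, and those of Ear2 and Rnase2a, the ribonuclease genes that accompanied Retnla. Each line gives 190 bases, 5′ to 3′ on the gene's strand, at -250 to -61 from the RefSeq start (GRCm38.p6): chr16:48842359-48842548 (+) for Retnla, chr16:48872358-48872547 (+) for Retnlg, chr14:44102404-44102593 (+) for Ear2 and chr14:51256173-51256362 (-) for Rnase2a. Capitals mark matches to a STAT6-type motif, TTC and GAA with 4 bases between them (the same on both strands), and a C/EBP-type motif, TTGCNNAA or TTNNGCAA on the other strand.
Retnla: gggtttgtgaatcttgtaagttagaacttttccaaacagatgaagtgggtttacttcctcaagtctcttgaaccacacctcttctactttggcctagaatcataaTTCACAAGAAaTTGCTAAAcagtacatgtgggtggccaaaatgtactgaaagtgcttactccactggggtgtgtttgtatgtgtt
Retnlg: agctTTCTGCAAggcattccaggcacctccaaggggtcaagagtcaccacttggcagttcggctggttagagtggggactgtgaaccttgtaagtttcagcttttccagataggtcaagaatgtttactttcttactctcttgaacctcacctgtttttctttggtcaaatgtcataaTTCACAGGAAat
Ear2: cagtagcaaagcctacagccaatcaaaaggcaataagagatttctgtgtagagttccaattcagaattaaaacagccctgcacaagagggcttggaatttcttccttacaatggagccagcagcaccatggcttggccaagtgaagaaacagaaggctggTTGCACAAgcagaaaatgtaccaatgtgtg
Rnase2a: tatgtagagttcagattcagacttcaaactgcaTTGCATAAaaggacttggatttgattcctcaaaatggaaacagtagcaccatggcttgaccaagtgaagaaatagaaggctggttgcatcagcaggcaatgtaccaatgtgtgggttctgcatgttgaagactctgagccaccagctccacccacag

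Retnla held a STAT6-type match, TTCACAAGAA, whose first base lay at -145, and a C/EBP-type match, TTGCTAAA, at -134, with no overlap between them. Retnlg held both kinds as well, with TTCACAGGAA at -72 and TTCTGCAA at -246. Ear2 had TTGCACAA at -90 and Rnase2a had TTGCATAA at -217, and neither had a STAT6-type match. Among all 32851 RefSeq windows of 300 bases (250 before to 50 after a start), 6.95% held the STAT6-type motif and 10.8% the C/EBP-type motif. Counted by gene, 8.01% and 12.2% of 27025 genes had such a window. Windows were at hand for 12 of the 14 genes with the largest excess in the members. Of these, 2 (Cbr2 and Cd36, both after the start) held the STAT6-type motif and 3 (Rnase2a, Pltp and Ear2) the C/EBP-type motif. A match describes letters and is not a binding site.

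The label was checked against markers. All 7 macrophage markers outside the rule (Ear2, Lyve1, Adgre1, Csf1r, Fcgr1, Mertk and Cd68) had UMIs in the members of every line. Their summed level, in CPM of the summed UMIs, was 2277 in Retnla-high cells (members) and 1334 in other gated macrophages (others) of KPCA.B. It was 1752 CPM in members and 731 CPM in others of KPCA.C, and 1867 CPM in members and 1140 CPM in others of KPCA.A. The sums include Ear2 and Lyve1, marks proposed for these cells. Of the 7, only these 2 were at least 2-fold higher in KPCA.B and KPCA.A, and Cd68 and Adgre1 joined them in KPCA.C. Lower in the members were 1, 1 and 2 of the 7 in KPCA.B, KPCA.C and KPCA.A. Csf1r in KPCA.A was at 380 CPM in members and 473 CPM in others. Of the marks proposed for these cells, Ear2 had a UMI in 95 of 162 KPCA.B members, 16 of 24 KPCA.C members and 12 of 23 KPCA.A members. Lyve1 had one in 62 of 162, 1 of 24 and 6 of 23 members, so Lyve1 marked a minority. Markers of other cell types differed in level. Of 6 eosinophil markers, Epx, Prg2, Il5ra and Prg3 were at 0 in the members of every line. The eosinophil list had UMIs in 6 KPCA.B members, no KPCA.C member and 2 KPCA.A members, and summed to 2.89, 0 and 16.9 CPM in the KPCA.B, KPCA.C and KPCA.A members, against 1.48, 5.67 and 5.90 CPM in others. Monocyte markers summed to 591, 761 and 490.0 CPM in the KPCA.B, KPCA.C and KPCA.A members, against 1415, 751 and 892 CPM in others. Fibroblast markers summed to 199.8, 53.9 and 50.7 CPM in members, against 782, 2433 and 521 CPM in others. B and plasma cell markers summed to 70.8 CPM in members and 53.7 CPM in others of KPCA.B, with UMIs in 54.3% of its members. T and NK cell markers summed to 0, 3.59 and 0 CPM in the KPCA.B, KPCA.C and KPCA.A members, and tumor epithelial markers summed to 43.8, 57.4 and 76.0 CPM. In other gated macrophages tumor epithelial markers summed to 411, 1079 and 712 CPM. Neutrophil markers summed to 22.6, 21.5 and 59.1 CPM in members, against 183, 25.8 and 46.8 CPM in others. The part of these transcripts in the differences given here was not tested.

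The KPCA.B library held 40054369 UMIs, that of KPCA.C 95130645 and that of KPCA.A 58591493. Barcodes over the mitochondrial limit made up 22.5%, 24.3% and 53.1% of these libraries. The median depth of Retnla-high cells was 11040.5, 9187 and 4595 UMIs in KPCA.B, KPCA.C and KPCA.A, against 10824, 12607 and 6776 UMIs in other gated macrophages. Members thus had fewer UMIs than the other macrophages in KPCA.C and KPCA.A. Pairs of tumor libraries shared between 5 and 19 barcodes, and no barcode was a member in more than 1 library.

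Retnla-high cells were common in KPCA.B tumors and scarce in the others. They made up 45.0% of gated macrophages in KPCA.B (162 of 360, exact Clopper-Pearson 95% interval 39.8 to 50.3%). The share was 2.74% in KPCA.C (24 of 877, 1.76 to 4.04%) and 3.72% in KPCA.A (23 of 619, 2.37 to 5.52%). As a share of all filtered cells they were 6.26%, 0.775% and 0.869% of the KPCA.B, KPCA.C and KPCA.A libraries. The KPCA.B interval lay above the other 2, which overlapped. All intervals cover counting error only and not the spread between tumors or libraries. With the threshold at 1000 CPM, the shares were 51.7%, 4.22% and 6.62% in KPCA.B, KPCA.C and KPCA.A, and with the threshold at 5000 CPM they were 35.6%, 1.37% and 1.78%. Without cells that hold 3 or more UMIs of another lineage, the KPCA.C share was 4.13%. With the large peritoneal-type cells kept, an alternative added after the data were seen, the KPCA.B share was 55.1%.

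Within the members Retnla varied widely. In KPCA.B cells its lowest, median and highest values were 2027, 13119 and 219227 CPM, the highest being 4196 UMIs of 1 cell. In KPCA.C cells they were 2137, 5120 and 88285 CPM, and in KPCA.A cells 2069, 4900 and 33049 CPM. The ranges overlapped and the KPCA.B median was the highest. At or over 20000 CPM lay 57 KPCA.B cells, 4 KPCA.C cells and 1 KPCA.A cell. The 3 cells with the most Retnla UMIs gave 20.6%, 53.2% and 54.4% of all members' Retnla UMIs in KPCA.B, KPCA.C and KPCA.A, so the summed levels of KPCA.C and KPCA.A rest on few cells. Of the other gated macrophages, 59 of 198 had no Retnla UMI in KPCA.B (29.8%), against 634 (74.3%) in KPCA.C and 477 (80.0%) in KPCA.A. Near the threshold, 14 KPCA.B cells lay from 2000 to under 3000 CPM and 24 from 1000 to under 2000. The corresponding numbers were 6 and 13 in KPCA.C and 3 and 18 in KPCA.A. In KPCA.B, cells just inside the threshold had 84.4 CPM of Lyve1, 199 CPM of Ear2 and 130 CPM of Folr2, and those just outside had 69.5 CPM of Lyve1, 311 CPM of Ear2 and 29.3 CPM of Folr2.

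**Figure D1:**
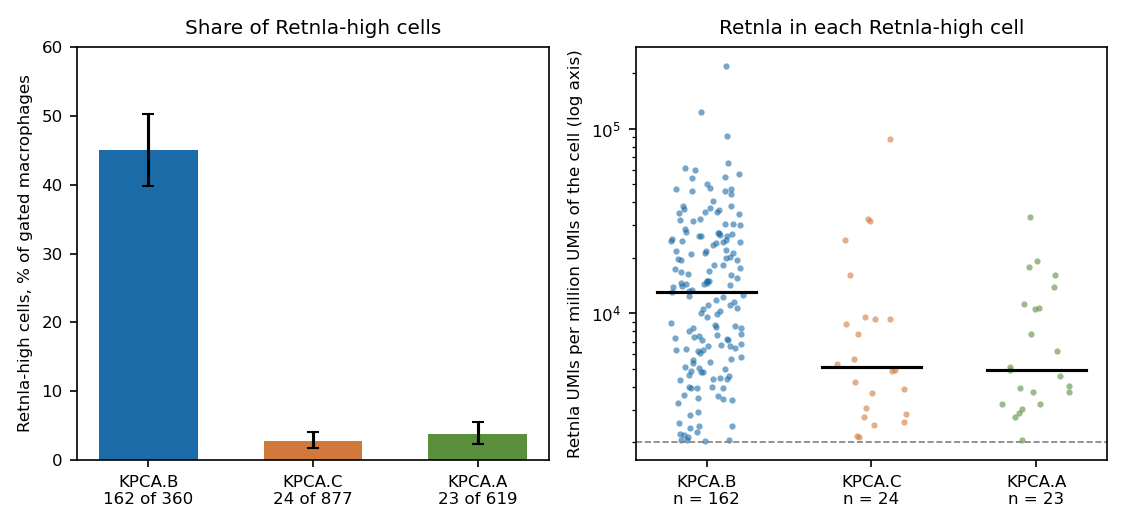
Left, the share of Retnla-high cells among gated macrophages of each line in percent, with exact 95% intervals (counting error only); right, Retnla in CPM of each Retnla-high cell on a log axis, with the median as a line and the threshold of 2000 as a dashed line. KPCA.B stood at 45.0%, against 2.74% in KPCA.C and 3.72% in KPCA.A, and the cells of all lines spread from the threshold upward.

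The members held 45.0%, 44.1% and 45.3% of the Retnla UMIs of the filtered KPCA.B, KPCA.C and KPCA.A cells. Large peritoneal-type macrophages, which the rule leaves out, held 42.8%, 39.7% and 5.19%, and cycling macrophages 6.45%, 1.43% and 25.8%. Large peritoneal-type macrophages (5 or more UMIs of Alox15, Cd5l, Prg4 and Timd4, cycling cells included) had 14256 CPM of Retnla in KPCA.B, and 124 of 135 passed the threshold. In KPCA.C they had 1014 CPM, with 11 of 96 over the threshold, and in KPCA.A 750 CPM, with 2 of 11. Cycling macrophages of KPCA.B, KPCA.C and KPCA.A had 2013, 6.35 and 275 CPM. KPCA.B was thus the highest line in these classes too. Taking all C1q-gated cells together, 53.4%, 2.97% and 3.94% passed the threshold in KPCA.B, KPCA.C and KPCA.A. No T cell or B cell passed it in any line, and 1 of 189 KPCA.C tumor cells did.

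Summed Retnla was 21039 CPM in Retnla-high cells and 272 CPM in other gated macrophages of KPCA.B, 11937 CPM in members and 34.1 CPM in others of KPCA.C, and 9809 CPM in members and 82.6 CPM in others of KPCA.A. Free RNA gives some UMIs to cells that do not make the transcript. In cells thinned to 1000 UMIs, a Retnla UMI was found in 99.3% of KPCA.B members and 19.3% of its other gated macrophages, against 7.14% of its T cells and 10.0% of its B cells. Without thinning, the T cell and B cell shares were 40% and 41.0%, at median depths of 4181 and 4342 UMIs, and the share of other gated macrophages was 70.2%.

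**Figure D2:**
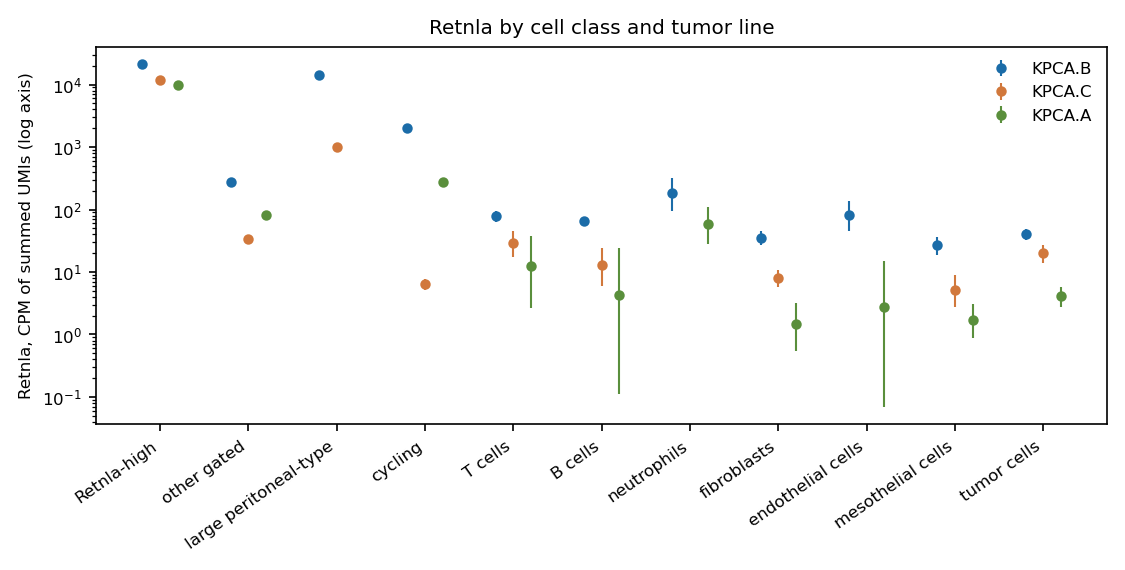
Retnla in CPM of summed UMIs (log axis) by cell class and tumor line, with exact 95% Poisson intervals; classes with under 20 cells in a line are not drawn. Retnla-high cells of KPCA.B, KPCA.C and KPCA.A stood at 21039, 11937 and 9809 CPM, KPCA.B large peritoneal-type cells at 14256 CPM, and lymphocytes under 100 CPM.

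Other resistin family genes were not found in the members. Retnlb, Retnlg and Retn, the genes of the related secreted proteins RELM-beta, RELM-gamma and resistin, had 0 UMIs in the 162 KPCA.B, 24 KPCA.C and 23 KPCA.A members. Among other gated macrophages of KPCA.B, 65 Retnlb UMIs lay in 1 cell and 21 Retnlg UMIs in another.

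The next comparison set Retnla-high cells against the other gated macrophages of the same library, on the scale log2((CPM + 5)/(CPM + 5)), over genes with at least 50 UMIs in both groups together and 20 CPM in one of them. In KPCA.B, 157 of 6511 genes (2.41%) were at least 2-fold higher and 354 (5.44%) at least 2-fold lower. In KPCA.C, 341 of 6924 (4.92%) were higher and 1167 (16.9%) lower, and in KPCA.A 388 of 6660 (5.83%) were higher and 1127 (16.9%) lower. Of 5777 genes measured in every line, 50 (0.866%) were higher and 90 (1.56%) lower in all 3. The rule used this contrast, so these counts describe what came with Retnla. Members held 2076814, 278551 and 118357 UMIs in KPCA.B, KPCA.C and KPCA.A, against 2701855, 16765967 and 4744499 in others. A gene at 20 CPM thus had few member UMIs in KPCA.C and KPCA.A, where genes can pass 2-fold by counting error alone. The median log2 ratio of all genes was -0.07, -0.16 and -0.13 in KPCA.B, KPCA.C and KPCA.A.

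Rnase2a led the genes higher in every line. It is an eosinophil-type ribonuclease gene (ENSMUSG00000047222, chr14:51255262-51256112, GRCm38) and was at 1614 CPM in Retnla-high cells and 221 CPM in other gated macrophages of KPCA.B, a ratio of 7.30 (exact conditional 95% interval 6.69 to 7.98). Its level was 1030.3 CPM in members and 38.2 CPM in others of KPCA.C, a ratio of 27.0 (23.4 to 31.1), and 1141 CPM in members and 73.1 CPM in others of KPCA.A, a ratio of 15.6 (12.7 to 19.1). Per cell, its lowest, median and highest values were 0, 668 and 9195 CPM in KPCA.B members and 0, 0 and 4751 CPM in the other macrophages, so the groups overlapped. Ear2 (ENSMUSG00000072596, chr14:44102654-44103534), which came ninth of the 14 named, of the same family and a known mark of alternatively activated mouse macrophages, was at 703 CPM in members and 197 CPM in others of KPCA.B, 574 CPM in members and 29.8 CPM in others of KPCA.C, and 338 CPM in members and 58.8 CPM in others of KPCA.A. The ratios of Ear2 were 3.57 (3.23 to 3.95), 19.3 (16.0 to 23.1) and 5.75 (4.02 to 8.03). Both belong to a family of near-identical genes, so reads may be split or lost between copies.

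Genes of alternative activation followed in part. Chil3, a chitinase-like secreted protein (Ym1), was at 10323 CPM in Retnla-high cells and 2575 CPM in other macrophages of KPCA.B, 11262 CPM in members and 2156 CPM in others of KPCA.C, and 13180.5 CPM in members and 2581 CPM in others of KPCA.A. At least 2000 CPM of Chil3 was held by 51.9% of members and 19.2% of other macrophages in KPCA.B, 58.3% of members and 23.2% of others in KPCA.C, and 65.2% of members and 23.5% of others in KPCA.A. Arg1, the arginase that breaks down arginine, was at 6058 CPM in members and 2350 CPM in others of KPCA.B, a ratio of 2.58 (2.50 to 2.66). It was at 4775 CPM in members and 4133 CPM in others of KPCA.C, and 5078 CPM in members and 4386 CPM in others of KPCA.A, ratios of 1.16 in each. Mrc1, the mannose receptor, was at 1028 CPM in members and 800.2 CPM in others of KPCA.B, 1167 CPM in members and 827 CPM in others of KPCA.C, and 1267 CPM in members and 709 CPM in others of KPCA.A, under 2-fold in every line. Of the list of alternative activation genes, 4 of 23 measured were 2-fold higher and 2 lower in KPCA.B, 10 and 1 of 22 in KPCA.C, and 9 and 2 of 23 in KPCA.A. The shares over all genes were 2.41%, 4.92% and 5.83% higher and 5.44%, 16.9% and 16.9% lower in KPCA.B, KPCA.C and KPCA.A. The list medians were 0.50, 0.74 and 0.21 on the log2 scale. Without cells that hold 3 or more UMIs of another lineage, the KPCA.C median was -0.31.

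Genes known from tissue-resident macrophages were higher in the members of every line. Of this list 12 of 23 measured genes were 2-fold higher and none lower in KPCA.B (median 1.10), 10 of 20 higher and 2 lower in KPCA.C (0.77), and 14 of 20 higher and none lower in KPCA.A (1.67). Of all genes, 2.41%, 4.92% and 5.83% were higher and 5.44%, 16.9% and 16.9% lower in KPCA.B, KPCA.C and KPCA.A. Fcna, Ltc4s, Lyve1, Folr2, Cbr2, Ccl8, Fcgrt and Igf1 were among the genes of the list higher in all 3. Pf4 and F13a1 were the 2 genes at least 2-fold lower in KPCA.C, whereas F13a1 was at least 2-fold higher in KPCA.A. Folr2 (ENSMUSG00000032725, chr7:101839988-101857194) was at 255 CPM in Retnla-high cells and 24.4 CPM in other macrophages of KPCA.B, 133 CPM in members and 21.4 CPM in others of KPCA.C, and 211 CPM in members and 21.5 CPM in others of KPCA.A. Its ratios were 10.4 (8.06 to 13.7), 6.22 (4.31 to 8.74) and 9.83 (6.08 to 15.3). A Folr2 UMI was found in 104 of 162, 12 of 24 and 11 of 23 members.

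Lyve1 (ENSMUSG00000030787, chr7:110850607-110863239) was at 321 CPM in Retnla-high cells and 27.8 CPM in other macrophages of KPCA.B, a ratio of 11.6 (9.09 to 14.9), and at 363 CPM in members and 9.48 CPM in others of KPCA.A, a ratio of 38.3 (24.6 to 59.5). In KPCA.C it was at 25.1 CPM in members and 5.01 CPM in others, but all 7 UMIs of the members came from 1 cell. Fcna, the lectin ficolin A, was at 326 CPM in members and 20.4 CPM in others of KPCA.B, 71.8 CPM in members and 17.3 CPM in others of KPCA.C, and 253 CPM in members and 13.3 CPM in others of KPCA.A. Ltc4s, the leukotriene C4 synthase, was at 518 CPM in members and 39.2 CPM in others of KPCA.B, 363 CPM in members and 62.8 CPM in others of KPCA.C, and 456 CPM in members and 77.4 CPM in others of KPCA.A. Cbr2, a carbonyl reductase, was at 135 CPM in members and 30.7 CPM in others of KPCA.B, 46.7 CPM in members and 8.35 CPM in others of KPCA.C, and 144 CPM in members and 12.2 CPM in others of KPCA.A. Igf1, an insulin-like growth factor, was at 333 CPM in members and 131 CPM in others of KPCA.B, 136 CPM in members and 55.5 CPM in others of KPCA.C, and 245 CPM in members and 40.7 CPM in others of KPCA.A. The KPCA.C and KPCA.A values of these genes rest on 7 to 101 UMIs each.

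Secreted and lipid-handling genes completed the group. Wfdc17, a small secreted protein of the whey acidic protein family, was at 1451 CPM in Retnla-high cells and 325 CPM in other macrophages of KPCA.B, 1310.3 CPM in members and 200.4 CPM in others of KPCA.C, and 3253 CPM in members and 288 CPM in others of KPCA.A. Ccl8, a chemokine, was at 1730 CPM in members and 469 CPM in others of KPCA.B, 359 CPM in members and 101 CPM in others of KPCA.C, and 1132 CPM in members and 228 CPM in others of KPCA.A. In KPCA.C, 63.0% of the members' Ccl8 UMIs came from 1 cell. Pltp, the phospholipid transfer protein, was at 494 CPM in members and 135 CPM in others of KPCA.B, 416 CPM in members and 26.6 CPM in others of KPCA.C, and 355 CPM in members and 49.1 CPM in others of KPCA.A. C4b, a complement component, was at 209 CPM in members and 39.2 CPM in others of KPCA.B, 118 CPM in members and 21.4 CPM in others of KPCA.C, and 76.0 CPM in members and 15.6 CPM in others of KPCA.A. The KPCA.A members held 9 C4b UMIs, and with the threshold at 5000 CPM their log2 ratio was -0.018. Cd36, a scavenger receptor for lipids, was at 84.3 CPM in members and 19.6 CPM in others of KPCA.B, 25.1 CPM in members and 4.12 CPM in others of KPCA.C, and 237 CPM in members and 11.8 CPM in others of KPCA.A, with 82.1% of the KPCA.A members' UMIs in 1 cell. Ifitm6 and Smpdl3a were the remaining genes named by this rule.

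Several of these genes were as high or higher in the large peritoneal-type macrophages of KPCA.B, which the comparison leaves out. Chil3 was at 10323 CPM in members and 33007 CPM in large peritoneal-type cells, C4b at 209 CPM in members and 798 CPM in large peritoneal-type cells, and Fcna at 326 CPM in members and 634 CPM in large peritoneal-type cells. Smpdl3a was at 429 CPM in members and 722 CPM in those cells, Ifitm6 at 88.1 CPM in members and 284 CPM in those cells, Ltc4s at 518 CPM in members and 576 CPM in those cells, and Wfdc17 at 1451 CPM in members and 1447 CPM in those cells. Other named genes were higher in the members. Cd36 was at 84.3 CPM in members and 25.1 CPM in large peritoneal-type cells, Cbr2 at 135 CPM in members and 26.5 CPM in those cells, and Pltp at 494 CPM in members and 151 CPM in those cells. Rnase2a was at 1614 CPM in members and 629 CPM in large peritoneal-type cells, Ear2 at 703 CPM in members and 139 CPM in those cells, Folr2 at 255 CPM in members and 69.8 CPM in those cells, and Ccl8 at 1730 CPM in members and 46.7 CPM in those cells. Lyve1 was at 321 CPM in members and 276 CPM in those cells. In KPCA.C, Lyve1, Fcna, Marco and Vsig4 were at least 2-fold lower in members than in large peritoneal-type cells. They were 4 of 20 measured genes of the tissue-resident list, of which 6, among them Folr2 and Ccl8, were at least 2-fold higher. Of all 6107 genes in that KPCA.C comparison, 356 were higher and 619 lower.

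**Figure D3:**
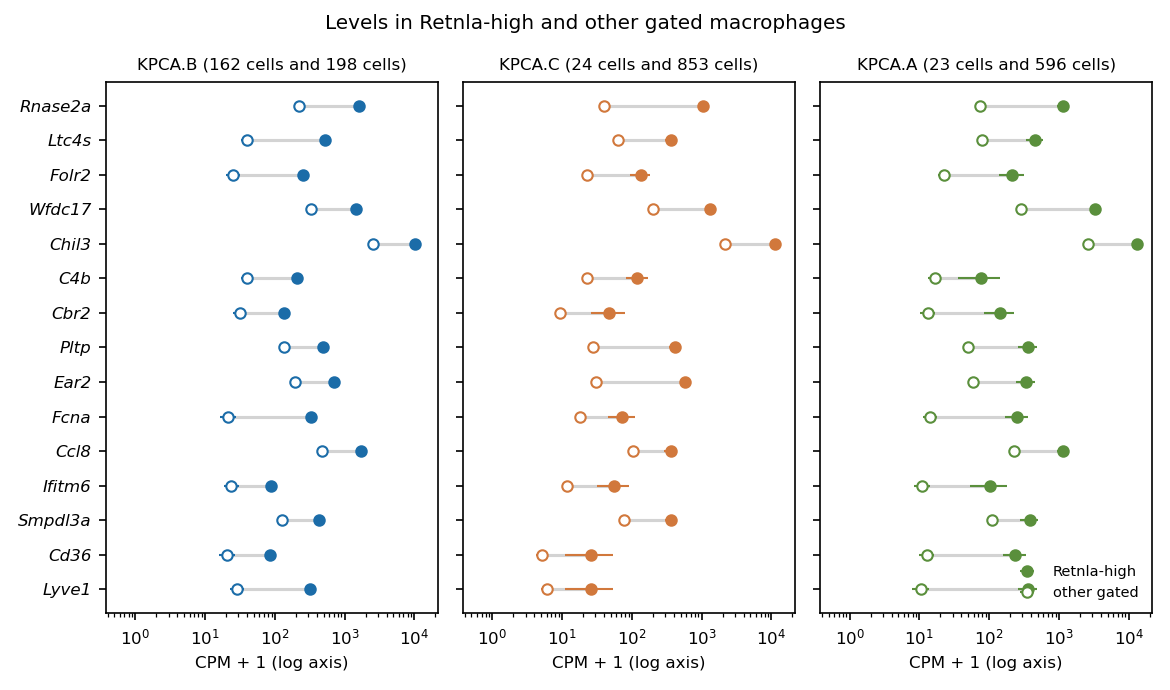
CPM + 1 (log axis) of the 14 genes with the largest smallest excess over the 3 lines, and of Lyve1, in Retnla-high cells (filled) and other gated macrophages (open), with exact 95% Poisson intervals. In each panel the filled point of every gene lies to the right of the open one, for Rnase2a in KPCA.B at 1614 against 221 CPM.

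The genes lower in all 3 lines were led by genes known from other cell types. Krt8, Krt18, Fbln2, Sparc, Col3a1, Col15a1 and Plat were among the 10 named, mostly keratin and matrix genes of epithelium and stroma. Cells with 3 or more UMIs of another lineage made up 15.4% of members and 23.7% of other gated macrophages in KPCA.B, and 12.5% of members and 42.8% of others in KPCA.C. In KPCA.A they were 1 of 23 members and 119 of 596 other macrophages. Leaving them out left 137, 21 and 22 members in KPCA.B, KPCA.C and KPCA.A. Of the 90 genes lower in every line, 9 then stayed among the 47 lower, and 24 of the 50 higher genes stayed among 34. Krt8, Krt18 and Col3a1 are among the markers that chose the cells left out, so the loss of their differences follows from that choice and measures nothing further.

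Without those cells, inflammatory and monocyte genes led the lower side. Il1b, the interleukin-1 beta gene, was at 23.8 CPM in Retnla-high cells and 182 CPM in other macrophages of KPCA.B, 62.6 CPM in members and 754 CPM in others of KPCA.C, and 26.4 CPM in members and 830.0 CPM in others of KPCA.A. Cxcl10, an interferon-induced chemokine, was at 2.57 CPM in members and 69.0 CPM in others of KPCA.B, 4.82 CPM in members and 50.7 CPM in others of KPCA.C, and 0 CPM in members and 168 CPM in others of KPCA.A. Tgfbi, a protein of the extracellular matrix, was at 380.1 CPM in members and 1435 CPM in others of KPCA.B, 482 CPM in members and 2551 CPM in others of KPCA.C, and 379 CPM in members and 1799 CPM in others of KPCA.A. Vcan, Ccl5, Ms4a4c and Ly6i were also among the 10 lowest. Rnase2a, Folr2, Ltc4s, Wfdc17, C4b, Ear2, Pltp, Chil3, Ifitm6 and Cbr2 remained among the 14 highest, while Fcna, Ccl8, Smpdl3a and Cd36 did not.

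With all cells kept, interferon-stimulated genes had list medians of -0.54, -0.09 and -1.09 in KPCA.B, KPCA.C and KPCA.A, with 3 of 14, 8 of 19 and 9 of 15 measured genes at least 2-fold lower, where 5.44%, 16.9% and 16.9% of all genes were. In KPCA.C, Cxcl9 and Gbp2 were at least 2-fold higher, and the list median lay above the -0.16 of all genes. Inflammatory genes had medians of -0.49, -0.23 and -0.30, with 2 of 12, 6 of 18 and 6 of 21 lower and 0, 2 and 3 higher. Monocyte genes had medians of -0.64, 0.04 and -0.28. Ccr2, the receptor that draws monocytes into tissue, was at 527 CPM in Retnla-high cells and 1108 CPM in other macrophages of KPCA.B, 632 CPM in members and 408 CPM in others of KPCA.C, and 313 CPM in members and 609.5 CPM in others of KPCA.A, so its direction differed between lines. Ly6c2, a mark of recent monocytes, was at 4.82 CPM in members and 58.5 CPM in others of KPCA.B, 57.4 CPM in members and 33.2 CPM in others of KPCA.C, and 8.45 CPM in members and 19.2 CPM in others of KPCA.A.

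Antigen presentation separated KPCA.C. Of 12 measured MHC class II genes, 11 were at least 2-fold higher in KPCA.C members (median 1.78), whereas KPCA.B had none (0.14) and KPCA.A had 1 (-0.30). Of all genes, 4.92% were at least 2-fold higher in KPCA.C, 2.41% in KPCA.B and 5.83% in KPCA.A. H2-Ab1, a class II beta chain, was at 4879 CPM in Retnla-high cells and 1049 CPM in other macrophages of KPCA.C, 3586 CPM in members and 3397 CPM in others of KPCA.B, and 2408 CPM in members and 3023 CPM in others of KPCA.A. H2-Ab1 thus ranged from 2408 to 4879 CPM over the members of the lines and from 1049 to 3397 CPM over the others. In these sums KPCA.C was highest among the members and lowest among the others. In KPCA.C, 1 cell gave 25.5% of the members' H2-Ab1 UMIs. Per cell, the H2-Ab1 medians of KPCA.B, KPCA.C and KPCA.A members were 3209, 3394 and 1764 CPM, and those of the others 3683, 353 and 2223 CPM. Of the KPCA.C others, 42.8% held 3 or more UMIs of another lineage, and their part was not tested. Cd74, the invariant chain, was at 14005 CPM in members and 3735 CPM in others of KPCA.C, 12101 CPM in members and 10144 CPM in others of KPCA.B, and 7435 CPM in members and 9877 CPM in others of KPCA.A. The per-cell Cd74 medians of KPCA.B, KPCA.C and KPCA.A members were 11094, 10285 and 6200 CPM, and those of the others 11636, 2009 and 8188 CPM.

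Lists of lipid, iron, hypoxia and growth factor genes differed in median between lines. For lipid-associated and phagocytic genes the KPCA.B, KPCA.C and KPCA.A medians were 0.50, 0.47 and 0.82, with 5 of 22, 4 of 20 and 10 of 22 at least 2-fold higher. Ctsb and Ctsd, lysosomal proteases, were among the higher genes in each line. At least 2-fold lower were Fabp4 in KPCA.B, Spp1 and Mfge8 in KPCA.C, and Mfge8 in KPCA.A. Over all genes, 2.41%, 4.92% and 5.83% were higher and 5.44%, 16.9% and 16.9% lower in KPCA.B, KPCA.C and KPCA.A. Lipid metabolism genes had medians of 0.18, 0.16 and 0.95. Iron and heme genes had medians of 0.43, 0.01 and 0.61. Hmox1, the heme oxygenase, was at 834 CPM in Retnla-high cells and 231 CPM in other macrophages of KPCA.B, 359 CPM in members and 223 CPM in others of KPCA.C, and 1403 CPM in members and 340.4 CPM in others of KPCA.A. Hypoxia and glycolysis genes had medians of 0.10, -0.35 and -0.26. Growth and matrix factor genes had medians of 0.15, -0.94 and -0.17, and 11 of 23 were at least 2-fold lower in KPCA.C, where 16.9% of all genes were. The lower genes included Mmp2, Tgfb2, Tgfb3 and Areg, and Igf1 and Gas6 were at least 2-fold higher. Fibroblast and tumor epithelial markers were lower in the KPCA.C members as well, at 53.9 CPM in members and 2433 CPM in others and at 57.4 CPM in members and 1079 CPM in others, and their part in this list was not tested.

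**Figure D4:**
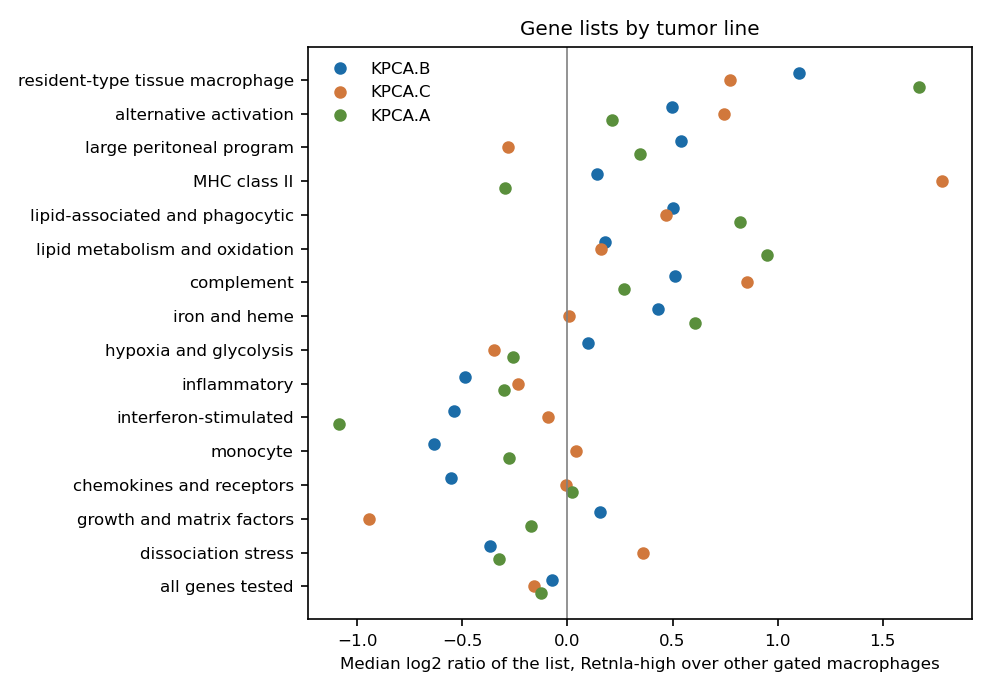
Median log2 ratio of each gene list, Retnla-high over other gated macrophages of the same library, by tumor line, with all genes tested in the bottom row (-0.07, -0.16 and -0.13). Resident-type genes lay at 1.10, 0.77 and 1.67 in KPCA.B, KPCA.C and KPCA.A, and MHC class II at 0.14, 1.78 and -0.30.

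Within the KPCA.B members, several genes went with the amount of Retnla. Ear2 was at 406 CPM in the 34 cells from 2000 to under 5000 CPM of Retnla, 399 CPM in the 71 cells from 5000 to under 20000, and 1254 CPM in the 57 cells from 20000 upward. Rnase2a was at 772, 1511 and 2135 CPM in these cells, and Ltc4s at 260.3, 408 and 786 CPM. Lyve1 was at 239, 169 and 566 CPM. The top group was thus highest for each of these. Chil3 was highest in the middle group, at 4719, 13032 and 9110.0 CPM. C1qa was at 5600.4, 5517 and 6154 CPM, and H2-Ab1 at 3342, 3456 and 3875 CPM, both within a narrow range.

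Members with and without Lyve1 differed in several genes. In KPCA.B the 62 cells with a Lyve1 UMI and the 100 without had similar depth, with medians of 10923 and 11040.5 UMIs. Fcna was at 639 CPM in cells with a Lyve1 UMI and 118 CPM in cells without, and Ltc4s at 702 CPM with and 396 CPM without. In the other direction Ear2 was at 569 CPM with and 791 CPM without, Ccl24, an eosinophil-attracting chemokine, at 1664 CPM with and 3508 CPM without, and Spp1, the osteopontin gene, at 131 CPM with and 857 CPM without. In cells thinned to 1000 UMIs, Lyve1 was found in 28 of 152 KPCA.B members, Ear2 in 44 and both in 6. H2-Ab1 was found in 82.1% of the thinned cells with Lyve1 and 87.1% of those without. The 52 KPCA.B members with 1 to 4 UMIs of the large peritoneal genes Alox15, Cd5l, Prg4 and Timd4 had more Lyve1 and Fcna too. Lyve1 was at 526 CPM in these 52 cells and 196 CPM in the 110 cells with none, and Fcna at 533 CPM in the 52 cells and 201 CPM in the 110. The part of these genes in the split by Lyve1 was not tested.

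Over 344 KPCA.B gated macrophages thinned to 1000 UMIs, the genes most like Retnla among 1320 were Timp2, a metalloproteinase inhibitor (Spearman's rho 0.53), Crip1 (0.51), Ccl6, a chemokine (0.51), Slc7a2, an arginine transporter (0.49), Rnase2a (0.47) and Trf, the transferrin gene (0.44). Tgfbi (-0.36), Coro1a (-0.35) and Ccr2 (-0.32) were the least like it. All points share 1 library, so these are descriptions. Over the 152 members alone the highest values were 0.36 for Ccl9 and 0.33 for Ccl6, chemokines, and 0.32 for Rnase2a, out of 1259 genes.

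The known inducers of Retnla were scarce as transcripts. Il4 had 11, 12 and 2 UMIs in all filtered cells of KPCA.B, KPCA.C and KPCA.A, and Il13 had 18, 45 and 2. Il33, an alarmin upstream of type 2 responses, had 1516, 40508 and 6956 UMIs, in libraries that differ in total UMIs. Scaled for depth, Il33 was at 111, 698 and 166 CPM in tumor cells of KPCA.B, KPCA.C and KPCA.A. It was at 109, 532 and 252 CPM in fibroblasts and 153, 1029 and 203 CPM in mesothelial cells, lowest in KPCA.B in each. Il4ra, the shared receptor chain, was at 171 CPM in Retnla-high cells and 154 CPM in other macrophages of KPCA.B, 180 CPM in members and 257 CPM in others of KPCA.C, and 186 CPM in members and 231 CPM in others of KPCA.A.

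The last comparison set the Retnla-high cells of the lines against each other, which has 1 library on each side and no test. Of 5587 genes, 408 (7.30%) were at least 2-fold higher and 163 (2.92%) at least 2-fold lower in the KPCA.B cells than in those of KPCA.C. Against KPCA.A, 636 of 5384 (11.8%) were higher and 254 (4.72%) lower. Between KPCA.C and KPCA.A only 1195 genes passed the filter, of which 69 (5.77%) were higher and 43 (3.60%) lower in KPCA.C. All 3 comparisons share samples, KPCA.C and KPCA.A members number 24 and 23 cells, and the median depth of KPCA.A members was 4595 UMIs.

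The lists of dissociation stress, hypoxia and inflammatory genes had medians below 0 for the KPCA.B members against both other lines. Of all genes, 2.92% were at least 2-fold lower than in KPCA.C and 4.72% than in KPCA.A. Of 16 dissociation stress genes, 10 were at least 2-fold lower than in KPCA.C (median -1.70) and 8 lower than in KPCA.A (-0.90). Fos, an immediate early transcription factor, was at 67.4 CPM in KPCA.B, 488 CPM in KPCA.C and 270.4 CPM in KPCA.A. Zfp36, which destabilises cytokine transcripts, was at 57.3, 571 and 287 CPM. These genes are known to respond to tissue digestion, and its part was not tested.

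Of the hypoxia and glycolysis list, 6 of 22 genes were at least 2-fold lower in KPCA.B members than in KPCA.C members (median -0.68) and 5 of 21 than in KPCA.A members (-0.59). None was 2-fold higher, although 7 of the 21 lay above 0 against KPCA.A. Vegfa, the vascular growth factor, was at 11.1 CPM in KPCA.B, 108 CPM in KPCA.C and 237 CPM in KPCA.A, from 23, 30 and 28 UMIs. Hilpda, a lipid droplet protein induced by hypoxia, was at 24.6, 154 and 389 CPM. In other gated macrophages of KPCA.B, KPCA.C and KPCA.A Hilpda was at 33.7, 216 and 184 CPM, so KPCA.B was lowest there as well. Of the inflammatory list, 7 of 11 were at least 2-fold lower than in KPCA.C (median -1.25), with Clec4d 2-fold higher, and 5 of 10 lower than in KPCA.A (-0.93).

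By the rule for single genes, Thbs1, Rgs1, Bhlhe40 and Plk2 were also lower in KPCA.B. Thbs1, the matrix protein thrombospondin, was at 73.2 CPM in KPCA.B, 628 CPM in KPCA.C and 515 CPM in KPCA.A. Rgs1, a regulator of G protein signals, was at 51.5, 409 and 338 CPM. In other gated macrophages of these lines Thbs1 was at 159.5, 778 and 434 CPM and Rgs1 at 93.3, 499 and 731 CPM. KPCA.B was thus lowest for both genes outside the members too. Ccl17 and Lyz1 also met the rule, but single cells gave 79.2% and 98.6% of their KPCA.C UMIs and all of their KPCA.A UMIs. On the higher side, Nfic, a transcription factor, was at 207 CPM in KPCA.B, 43.1 CPM in KPCA.C and 84.5 CPM in KPCA.A. Tfrc, the transferrin receptor, was at 81.9, 7.18 and 25.3 CPM, with 2 UMIs in KPCA.C and 3 in KPCA.A. Rab7b, Dock11, Bet1l, Gngt2, Emc1 and Prpf4b completed that side, from 4 to 13 UMIs each in KPCA.C and 1 to 5 in KPCA.A.

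Resident-type genes were lowest in KPCA.C members. Of 23 genes, 11 were at least 2-fold higher and none lower in KPCA.B members than in those of KPCA.C (median 0.91), while 2 were higher and 1 lower than in those of KPCA.A (0.12). In KPCA.C, 7 of 14 were lower than in KPCA.A and none higher (-0.94). Among all genes, 7.30% passed the 2-fold limit upward and 2.92% downward for KPCA.B over KPCA.C. For KPCA.B over KPCA.A these shares were 11.8% and 4.72%, and for KPCA.C over KPCA.A 5.77% and 3.60%. Marco, a scavenger receptor, was at 89.1 CPM in KPCA.B, 3.59 CPM in KPCA.C and 67.6 CPM in KPCA.A. Fcna was at 326, 71.8 and 253 CPM and Lyve1 at 321, 25.1 and 363 CPM. Vsig4, a complement receptor, was at 42.9 CPM in KPCA.B, with 0 UMIs in KPCA.C and KPCA.A. In the members 3 UMIs equal 10.8 CPM in KPCA.C and 25.3 CPM in KPCA.A, and Marco in KPCA.C lay under that level.

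Between the smaller groups, Mmp12, a macrophage elastase, was at 136 CPM in KPCA.C and 1470.1 CPM in KPCA.A, and Lpl, the lipoprotein lipase, at 86.2 CPM in KPCA.C and 684 CPM in KPCA.A. Saa3, an acute-phase protein, was at 255 CPM in KPCA.C and 7004 CPM in KPCA.A, with 66.3% of the KPCA.A UMIs in 1 cell. Tnip3, an inhibitor of NF-kappaB signals, was at 499 CPM in KPCA.C and 84.5 CPM in KPCA.A, Klf3 at 190.3 CPM in KPCA.C and 42.2 CPM in KPCA.A and Rgs2 at 327 CPM in KPCA.C and 84.5 CPM in KPCA.A, from 5 to 10 UMIs in KPCA.A. Cxcl9 was at 341 CPM in KPCA.C and 25.3 CPM in KPCA.A, from 2 cells in each line.

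**Figure D5:**
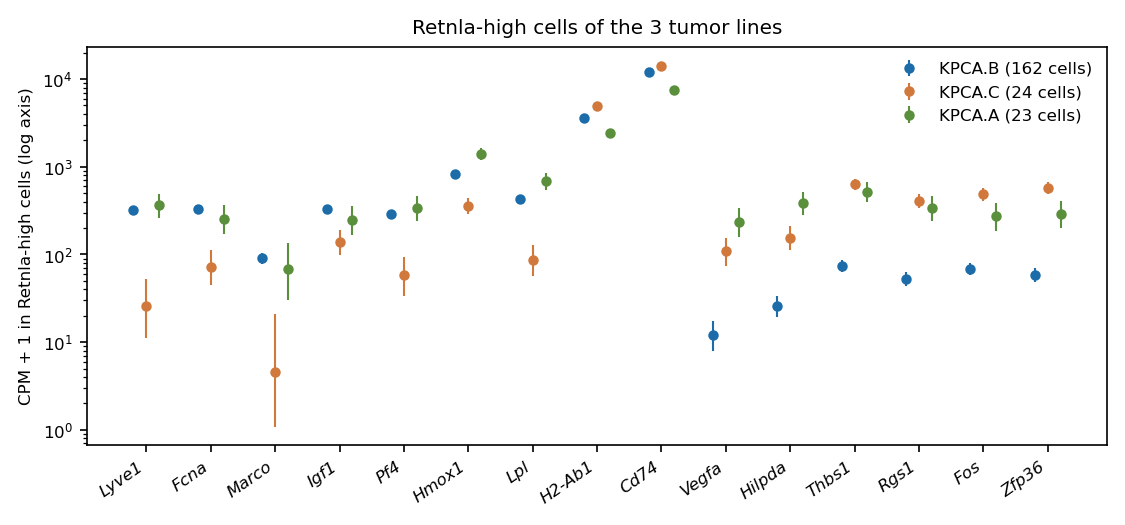
CPM + 1 (log axis) in Retnla-high cells of the 3 lines, with exact 95% Poisson intervals, for 15 genes chosen after their values were seen. KPCA.B lay lowest for Vegfa, Hilpda, Thbs1, Rgs1, Fos and Zfp36, and KPCA.C lowest for Lyve1, Fcna, Marco, Igf1, Hmox1 and Lpl.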

How the data were processed

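The series holds 4 droplet libraries of single cells, 3 from tumors and 1 from ascites. The authors deposited raw UMI counts per gene and barcode, written per the file headers by Cell Ranger 4.0.0 (tumors) and 3.0.2 (ascites). The submitters' processing notes name version 3.1.0 of the same tool and mm10. Identifiers, symbols and barcodes stood in separate deposited tables, which held no measurement. The labels give one chemistry for all libraries, although the barcode sets of tumors and ascites differ. The text states the gates. No doublet caller was run; cells with 3 or more UMIs of another lineage's markers were left out as an alternative.

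Raw counts were summed per group and library and scaled to CPM (numpy 2.4.6, pandas 2.3.3 and scipy 1.17.1 under python 3.11.15, with plots by matplotlib 3.10.9). Steps were tested on simulated data. With 1 library per group no test was run. Intervals are exact and cover counting error only. Alternatives were other Retnla, depth, mitochondrial and C1q limits, scalings, 1 or 20 CPM added, a filter of 10 UMIs, and, added after seeing the data, large peritoneal-type cells kept and the deepest member left out.

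Named genes were the 14 with the largest smallest and the 10 with the lowest largest ratio over the lines, 8 per direction of KPCA.B against both others and 4 of KPCA.C over KPCA.A at 50 CPM or more and at least 50% of any non-macrophage class, the fixed markers, leading list members and the 6 genes most like Retnla. The rule left out ribosomal, mitochondrial, immunoglobulin, Gm and Rik genes. One of the 10 has a symbol with 2 identifiers and is not given. Members and gene lists were chosen with earlier results of these data known. Positions are those of GENCODE vM21 (GRCm38), and promoter sequences those of RefSeq (GRCm38.p6).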

Additional observations from a re-analysis of the deposited data

Results flagged for a closer look

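Some lists had medians of opposite sign between lines when Retnla-high cells were set against the other gated macrophages of their own library. The difference between lines was not tested, since each line has 1 library. The median log2 ratio of the large peritoneal program was 0.538, -0.284 and 0.346 for KPCA.B, KPCA.C and KPCA.A. For MHC class II genes it was 0.141, 1.78 and -0.297 for these lines. For dissociation stress genes it was -0.371, 0.36 and -0.326.

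The ascites library, which the comparisons do not use, also held cells over the Retnla threshold. Among its C1q-gated cells, 18 of 421 passed, with 13987 CPM of Retnla, against 76.2 CPM in the other 403. Among cells with no C1q UMI, 38 passed, with 19212 CPM of Retnla and a median depth of 899 UMIs.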

How the results depend on the processing

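Of the gene counts under the alternatives, 114 stayed within 1.5 times and 40 moved; of the shares 19 stayed within their interval and 8 moved. For named genes 1366 values kept direction and size, 80 moved and 17 reversed, and for list medians the numbers were 290, 58 and 3. Causes were not tested. Retnla-high cells and the other gated macrophages were compared inside the same library of each line. No test was run on that contrast because the rule used it. With 1 library per line, differences between lines could not be checked against replicates.

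Shares in KPCA.B, KPCA.C and KPCA.A were 51.7, 4.22 and 6.62% at a threshold of 1000 CPM of Retnla and 35.6, 1.37 and 1.78% at 5000. KPCA.B stood at 55.1% with large peritoneal-type cells kept, and KPCA.C at 4.13% without cells holding another lineage's UMIs.

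With 20 CPM added, genes higher in the members numbered 82, 175 and 178 in KPCA.B, KPCA.C and KPCA.A and 31 in all 3, and genes lower 202, 675 and 604, and 42. Between lines, 147 were higher and 104 lower for KPCA.B over KPCA.C, and 278 higher and 142 lower for KPCA.B over KPCA.A. With a filter of 10 UMIs, 610 were higher in KPCA.A members, and 736, 2292 and 2629 lower, 256 in all 3. Between lines the higher genes then numbered 1040, 1853 and 548 and the lower 378, 670 and 417 for KPCA.B over KPCA.C, KPCA.B over KPCA.A and KPCA.C over KPCA.A. With the mean over cells, 27 were higher and 52 lower in all 3. These held 21 of the 50 higher and 16 of the 90 lower genes found with summed UMIs. Between lines 731 were higher for KPCA.B over KPCA.C and 117 for KPCA.C over KPCA.A, and 314, 387 and 67 lower. Without cells holding another lineage's UMIs, 199 were higher in KPCA.C, and 173 and 614 lower in KPCA.B and KPCA.C, 47 in all 3, with 28 lower for KPCA.C over KPCA.A. At the threshold of 5000, 590 were higher in KPCA.A and 21 lower for KPCA.C over KPCA.A. With large peritoneal-type cells kept, 211 were higher in KPCA.C, and 148 higher and 89 lower for KPCA.C over KPCA.A.

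Krt8 and Krt18 are among the markers by which cells with another lineage's UMIs were left out, so their reversal follows from that choice. Reversed log2 values without cells holding another lineage's UMIs were Krt8 0.36, Fbln2 0.67, Col15a1 0.37 and Krt18 0.26 in KPCA.C, Sparc 0.085 and Krt18 0.28 in KPCA.B, Sparc 0.21 and Krt18 0.32 in KPCA.A, and Malt1 -0.37 for KPCA.C over KPCA.A, with list medians of -0.31 for alternative activation and -0.012 for complement in KPCA.C. With at most 10% mitochondrial UMIs, Tfrc was 1.35 for KPCA.C over KPCA.A, and Ccl17 2.61 and Lyz1 2.29 for KPCA.B over KPCA.A. With the mean over cells, Bet1l was -0.60 and Saa3 -0.44 for KPCA.B over KPCA.C. At the threshold of 5000, C4b was -0.018 in KPCA.A, and Lyz1 2.39 and Saa3 1.01 for KPCA.B over KPCA.A. The complement median in KPCA.B was -0.17 with the filter of 10 UMIs.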

Other observations

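The 18 ascites cells over the threshold had Ear2 at 581 CPM, against 55.2 CPM in the other C1q-gated ascites cells, and no Lyve1 UMI. Of these cells, 11 of 18 (61.1%) held 3 or more UMIs of another lineage, against 41.9% of the other gated cells, and the part of those transcripts was not tested. Their H2-Ab1 level was 664 CPM, against 362 CPM. Chil3 ran the other way, at 2366 CPM in the cells over the threshold and 9398 CPM in the other gated cells. Large peritoneal-type macrophages of the ascites had 137 CPM of Retnla, with 4 of 521 over the threshold, whereas 124 of 135 passed in KPCA.B tumors.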
